A study of Mus musculus with 224 samples.

Results

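The genes described here encode the respiratory chain and the ATP synthase from the nuclear genome, called OXPHOS genes below for oxidative phosphorylation. They were chosen by symbol among protein-coding genes: every gene whose symbol starts with Ndufa, Ndufb, Ndufc, Ndufs, Ndufv, Uqcr, Cox4i, Cox5, Cox6, Cox7, Cox8 or Atp5, with Sdha, Sdhb, Sdhc, Sdhd, Cyc1 and Cycs, and without the Ndufaf assembly factors. The rule matched 88 genes of the annotation, and 85 of them were among the 17494 genes measured in any tissue. Of these 85 genes, 36 belong to complex I, 4 to complex II, 9 to complex III, 18 to complex IV and 17 to complex V, and 1 encodes cytochrome c. Ndufa4 and its paralogue Ndufa4l2 were counted with complex IV. In liver 83 were measured, in muscle 84 and in adipose tissue 85, and every one passed the filter on low values. The rule uses symbols and no measured value, but it was chosen with earlier results of these data known.

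Bulk RNA was sequenced from 72 mice, each of which gave liver, muscle (soleus) and adipose tissue (visceral). The mice were C57Bl/6J, DBA/2J or BALB/cJ, 3 inbred strains with no transgene or allele named in the labels. They ate regular chow (RC) or a diet high in fat (HFD) until day 5, 13 or 33, which made 18 groups with 4 mice in each. The labels give neither the age nor the sex of the animals. The study compared the response to the diet between strains, tissues and days. Values are log2 CPM, read counts scaled to the total of a library and put on a log2 scale, where a difference of 1 is 1 doubling. Every test was run over all genes of a tissue, and a gene was called at a Benjamini-Hochberg adjusted p under 0.05.

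In oxidative phosphorylation, complexes I and II pass electrons from NADH and succinate to ubiquinone, complex III passes them to cytochrome c, and complex IV, cytochrome c oxidase, passes them to oxygen. Complexes I, III and IV pump protons, and complex V, the ATP synthase, uses the gradient to make ATP. Most subunits are nuclear genes and a core set is encoded by mitochondrial DNA. The nuclear genes are known targets of the factors NRF1, GABP, YY1 and the estrogen-related receptors, which the coactivator PGC-1α (Ppargc1a) assists. Soleus is a muscle rich in oxidative fibres, which depend on this system.

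Several libraries stood apart from their groups. Libraries held 1.81e+07 to 4.68e+07 reads. The adipose libraries labelled 3HF201 and 3HF208 (BALB/cJ on HFD, day 5 and day 33) had Adipoq at 2.80 and 3.61 log2 CPM, against 9.12 to 12.65 in the other 70. Their insulin transcript Ins2 stood at 17.81 and 18.39, against 8.19 at most elsewhere, and neither was above the midpoint for any of 18 genes that mark BALB/cJ. In muscle, the library 1RC210 (C57Bl/6J, RC, day 33) had the slow myosin Myh7 at 6.20 where the others had at least 12.11, 1RC226 (C57Bl/6J, RC, day 5) had the highest Alb, a hepatocyte gene, at 12.41, and 2HF201 (DBA/2J, HFD, day 5) had the lowest mean of the mitochondrially encoded subunits, 9.92 against a median of 13.50. In liver, 2HF200, 2HF211, 2RC200, 2RC209 and 3RC211 were the 5 highest in Acta1, the skeletal muscle actin. The defining transcripts were otherwise in place, with Alb at 15.49 or more in every liver and Acta1 at 14.31 or more in every muscle. Only some of the counts below are given both with and without these libraries.

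Muscle carried the highest levels. On RC, the OXPHOS genes had a median of 7.94 log2 CPM in muscle, 6.73 in liver and 6.23 in adipose tissue, where all measured genes had medians of 3.68, 3.82 and 4.10. The tables were scaled separately, so no test was made across tissues. Per kb of exon, the highest OXPHOS gene was Cox6a2 in muscle at 10.34 log2 CPM per kb, Atp5a1 (the catalytic core subunit alpha of the ATP synthase) in liver at 8.52, and Cox8a in adipose tissue at 8.17. Atp5l was the lowest per kb in all 3 tissues, with its exons taken as 6443 bases, and a value per kb depends on this length.

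Several small subunits of complex IV exist as a muscle isoform and a ubiquitous one, and the tissues used them in different shares. Over the 36 RC animals, Cox6a2 made up 96.8% ± 0.852 (SD) of the reads per kb of Cox6a1 and Cox6a2 together in muscle, 0.327% ± 0.524 in liver and 2.72% ± 4.39 in adipose tissue. The lowest muscle library had 93%, the highest adipose library 17.9% and the highest liver library 2.20%, so muscle did not overlap the other tissues. Cox8b took 93.9% ± 1.17 of the Cox8 reads per kb in muscle, 0.866% ± 1.28 in liver and 15.4% ± 5.49 in adipose tissue. Cox7a1 took 74.7% ± 1.46 of the Cox7a reads per kb in muscle, 1.97% ± 0.937 in liver and 5.85% ± 4.43 in adipose tissue, so that Cox7a2 still held 25.3% in muscle, against 98.0% in liver and 94.1% in adipose tissue. Cox4i1, the ubiquitous form of subunit 4, held 99.3% ± 0.135 in muscle and 98.2% ± 0.852 in adipose tissue, and Cox4i2 was not in the liver table. In liver and adipose tissue the highest shares of the muscle isoforms were 2.20% and 17.9% for Cox6a2 and 4.94% and 32.1% for Cox8b, and the cells they came from were not tested. The ATP synthase subunit c has 3 genes that encode the same mature protein. Atp5g3 held 84.3% ± 2.00 of their reads per kb in liver, 79.3% ± 4.63 in adipose tissue and 80.9% ± 2.77 in muscle, and in adipose tissue Atp5g2 held 16.1% ± 3.85 against 4.61% ± 1.11 for Atp5g1. Reads were divided by exon lengths of 4912 bases for Atp5g1, 1675 for Atp5g2 and 2181 for Atp5g3. The shares per kb depend on these lengths and are not shares of reads. For Atp5g2, 34.7% of the 100-base windows of its transcripts also occur in another gene, so its share is uncertain.

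**Figure D1:**
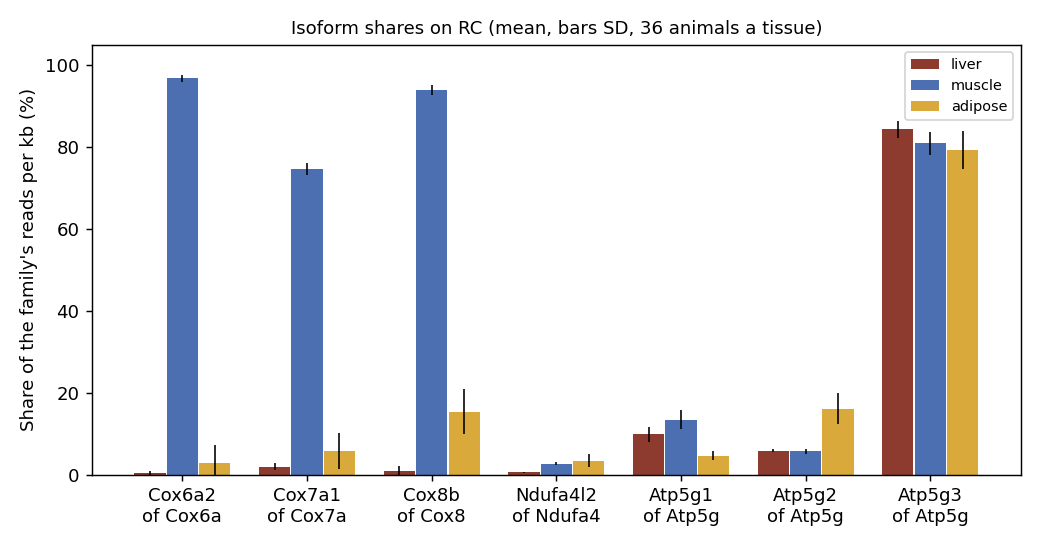
Share of a family's reads per kb held by 1 isoform (vertical axis, %) for 7 genes (horizontal axis) in liver, muscle and adipose tissue on RC. Bars are means of 36 animals and lines are SDs. Cox6a2, Cox7a1 and Cox8b have larger shares in muscle than in the other tissues, and Atp5g3 is the main subunit c gene in each tissue.

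The promoters of these isoform pairs are shown because the members of a pair differ so much between tissues. None was found by symbol for Cox6a2, so Cox6a1 is shown without its muscle partner. The windows are the 150 bases before the RefSeq start on GRCm38.p6, 5′ to 3′ on the gene's strand, with matched motifs in capitals.
Cox7a1, chr7:30184021-30184170, plus strand: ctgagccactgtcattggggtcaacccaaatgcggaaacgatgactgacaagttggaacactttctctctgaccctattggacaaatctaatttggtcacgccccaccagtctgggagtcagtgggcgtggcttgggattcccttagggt
Cox7a2, chr9:79759854-79760003, minus strand: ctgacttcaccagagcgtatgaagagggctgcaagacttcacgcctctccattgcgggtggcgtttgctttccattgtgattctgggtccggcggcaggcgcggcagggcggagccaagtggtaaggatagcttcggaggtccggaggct
Cox8b, chr7:140900447-140900596, minus strand: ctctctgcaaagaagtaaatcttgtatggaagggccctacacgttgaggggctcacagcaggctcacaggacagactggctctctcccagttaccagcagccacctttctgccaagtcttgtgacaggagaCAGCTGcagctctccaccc
Cox8a, chr19:7217617-7217766, minus strand: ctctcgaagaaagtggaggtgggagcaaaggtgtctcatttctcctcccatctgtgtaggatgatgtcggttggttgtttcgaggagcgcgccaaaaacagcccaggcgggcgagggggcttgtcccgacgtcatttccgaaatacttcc
Cox6a1, chr5:115348959-115349108, minus strand: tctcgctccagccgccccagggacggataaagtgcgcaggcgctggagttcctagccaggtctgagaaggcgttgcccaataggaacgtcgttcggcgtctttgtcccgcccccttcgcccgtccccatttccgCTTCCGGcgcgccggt
The capitals mark a CAGCTG E-box in Cox8b and a GABP motif, CCGGAAG on the other strand, in Cox6a1. Only matches that lie wholly within the 150 bases are marked. In the longer promoters of 300 bases, Cox8a held a GABP match and Cox6a1 held an NRF1 core match besides its GABP match. The windows of the muscle isoforms shown held few CpG dinucleotides, 1 in Cox8b and 4 in Cox7a1. Cox8a held 10 and Cox7a2 held 11, and Cox6a1, whose muscle partner is not shown, held 18. The GC content of the Cox8 pair was the same, 55.3%. Promoters of 300 bases (250 before and 50 after the start) were found for 67 of the 85 genes by symbol, and each motif was searched on both strands. The GABP motif CCGGAAG occurred in 16 of the 67 genes (23.9%) and in 9.93% of all 27025 genes with a promoter. The YY1 motif AAGATGGC occurred in 9 (13.4%, against 3.19%) and the estrogen-related receptor motif AAGGTCA in 8 (11.9%, against 5.38%). The NRF1 core GCATGCGC occurred in 11 (16.4%, against 3.05%). None of these motifs contains another. The E-box was found in 6 (8.96%, against 18.3%) and the muscle motif CTAAAAATA of MEF2 in 0 (against 0.588%).

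In muscle, many OXPHOS genes were higher on HFD in C57Bl/6J, none was called in DBA/2J, and a few were lower on HFD in BALB/cJ. In C57Bl/6J, 45 of 84 genes were higher on HFD and 0 were lower, where 5.75% of all 13637 tested genes were called and 3.79% were higher. The median difference of the OXPHOS genes was 0.22 on the log2 scale, 83 of 84 estimates were above 0, and the median of all genes was -0.01. In DBA/2J no OXPHOS gene was called by limma (3 at an unadjusted p under 0.05, and 8.73% of all genes called), with a median of 0.01. In BALB/cJ, 8 genes were lower and 0 higher (11.5% of all genes called, 5.26% lower), with a median of -0.11 and 79 of 84 estimates below 0. Averaged over strains and days, 5 genes were higher and 0 lower (17.4% of all genes called): Cycs, Ndufa3, Ndufab1, Ndufa10 and Ndufb3.

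Cycs, which encodes the electron carrier cytochrome c, had the smallest p of all OXPHOS genes in C57Bl/6J. On RC its levels were 6.81, 6.81, 7.16 and 7.11 log2 CPM at day 5, 6.58, 6.90, 6.81 and 6.95 at day 13, and 6.97, 7.0, 7.0 and 7.16 at day 33. On HFD they were 7.46, 7.40, 7.31 and 7.43 at day 5, 7.42, 7.29, 7.16 and 7.43 at day 13, and 7.36, 7.42, 7.68 and 7.39 at day 33. The highest of 12 RC animals stood at the level of the lowest of 12 HFD animals, and within each day the diets did not overlap. The mean difference was 0.46 ± 0.059 (SE), a 1.38-fold rise, with an adjusted p of 5.29e-08. The DBA/2J difference was 0.15 ± 0.059 (adjusted p = 0.101), that of BALB/cJ was 0.04 ± 0.059 (adjusted p = 0.704), and the F test across strains gave an adjusted p of 0.00116. Of its transcript windows, 22.6% also occur in 3 other genes, so part of its reads could come from copies.

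The promoters of Cycs and of Atp5g3, the subunit c gene with the third smallest p in C57Bl/6J, carry a match to 1 motif each, in capitals: the NRF1 core in Cycs and the estrogen-related receptor motif, on the other strand, in Atp5g3.
Cycs, chr6:50566570-50566719, minus strand: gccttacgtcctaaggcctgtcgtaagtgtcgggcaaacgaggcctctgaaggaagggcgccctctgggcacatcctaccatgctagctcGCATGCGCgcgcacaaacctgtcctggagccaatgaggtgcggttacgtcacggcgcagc
Atp5g3, chr2:73911327-73911476, minus strand: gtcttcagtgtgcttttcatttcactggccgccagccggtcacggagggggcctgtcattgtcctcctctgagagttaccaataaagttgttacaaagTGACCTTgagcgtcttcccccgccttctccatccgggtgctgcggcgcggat
Ndufab1, the gene with the second smallest p in C57Bl/6J, held no match to any of the motifs in the same 150 bases. A match is a string of letters, and binding was not measured here.

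Complex I gave 21 of the 45 higher genes in C57Bl/6J, out of 36 tested. Ndufab1, the mitochondrial acyl carrier protein that is also a complex I subunit, ranged from 6.05 to 6.60 on RC (median 6.31) and from 6.48 to 6.97 on HFD (median 6.69) in C57Bl/6J. The difference was 0.34 ± 0.054 (adjusted p = 1.01e-05). In the other strains it was 0.05 ± 0.054 (DBA/2J) and -0.08 ± 0.054 (BALB/cJ), neither called. Ndufa3, an accessory subunit, rose by 0.36 ± 0.073 (adjusted p = 0.000764). Ndufs4, an accessory subunit whose loss causes Leigh syndrome, moved in opposite directions: its difference was 0.23 ± 0.060 in C57Bl/6J (adjusted p = 0.0117) but -0.21 ± 0.060 on the BALB/cJ background (adjusted p = 0.0172). Its BALB/cJ levels were 7.5 to 8.32 on RC and 7.46 to 7.73 on HFD, so the ranges overlapped. Ndufa12 fell in BALB/cJ by 0.22 (SE 0.060, adjusted p = 0.0126), and so did Ndufv2 and Ndufb2, named after their values were seen.

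Of the 4 genes of complex II, succinate dehydrogenase, 3 were higher in C57Bl/6J: Sdhb, the iron-sulfur subunit, by 0.28 ± 0.058 (adjusted p = 0.000991), and the membrane anchors Sdhd by 0.26 ± 0.056 and Sdhc by 0.18 ± 0.052. The Sdhc call ended in 6 of 72 fits with 1 animal left out and under quantile normalization. It also ended with the mean of slow fibre markers as a covariate and without 1RC210, 1RC226 and 2HF201. Sdha, the flavoprotein subunit, differed by 0.13 ± 0.042 (adjusted p = 0.0568). In complex III, 6 of 9 genes were higher, among them Cyc1, the cytochrome c1 subunit that hands electrons to cytochrome c. It ranged from 8.74 to 9.25 on RC and from 9.08 to 9.41 on HFD in C57Bl/6J, a rise of 0.26 ± 0.053 (adjusted p = 0.000806).

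In complex IV, 7 of 17 genes were higher in C57Bl/6J. Cox4i1 (0.25 ± 0.065), Cox6b1 (0.27 ± 0.064), Cox7a2 (0.28 ± 0.059), Ndufa4 (0.25 ± 0.063) and Cox7a2l (0.22 ± 0.064) were among them. The Cox7a2l call ended in 8 of 72 fits with 1 animal left out and with the mean of slow fibre markers as a covariate. It also ended without 1RC210, 1RC226 and 2HF201, and the Cox4i1 call ended under quantile normalization. The muscle isoforms were not called in this strain. Cox6a2 had a median of 9.84 on RC and 9.81 on HFD, a difference of -0.01 ± 0.073 (adjusted p = 0.978). Cox8b differed by 0.28 ± 0.096 (adjusted p = 0.0703) and Cox7a1 by 0.22 ± 0.078 (adjusted p = 0.0811). In BALB/cJ, Cox7a1 fell by 0.27 (SE 0.078, adjusted p = 0.0183) and Ndufa4l2, at about 3.47 on RC and 3.25 on HFD, fell by 0.33 (SE 0.082, adjusted p = 0.00562).

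In complex V, 7 of 17 genes were higher in C57Bl/6J. Atp5g3 ranged from 9.23 to 9.72 on RC and from 9.54 to 9.94 on HFD, a rise of 0.28 ± 0.056 (adjusted p = 0.000547). In BALB/cJ it ranged from 9.61 to 10.24 on RC and from 9.52 to 9.82 on HFD, and fell by 0.17 (SE 0.056, adjusted p = 0.0416). The other subunit c genes did not pass the test in C57Bl/6J, with 0.18 ± 0.058 for Atp5g1 (adjusted p = 0.0606) and 0.00 ± 0.052 for Atp5g2 (adjusted p = 0.979). Atp5g2 fell in BALB/cJ by 0.15 (SE 0.052, adjusted p = 0.0457). With 1 animal left out, the BALB/cJ calls of Atp5g3 and Atp5g2 each ended in 14 of 72 fits. That of Atp5g2 also ended under quantile normalization, with the range of animal numbers as a covariate, in BALB/cJ animals alone and with voom weights.

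**Figure D2:**
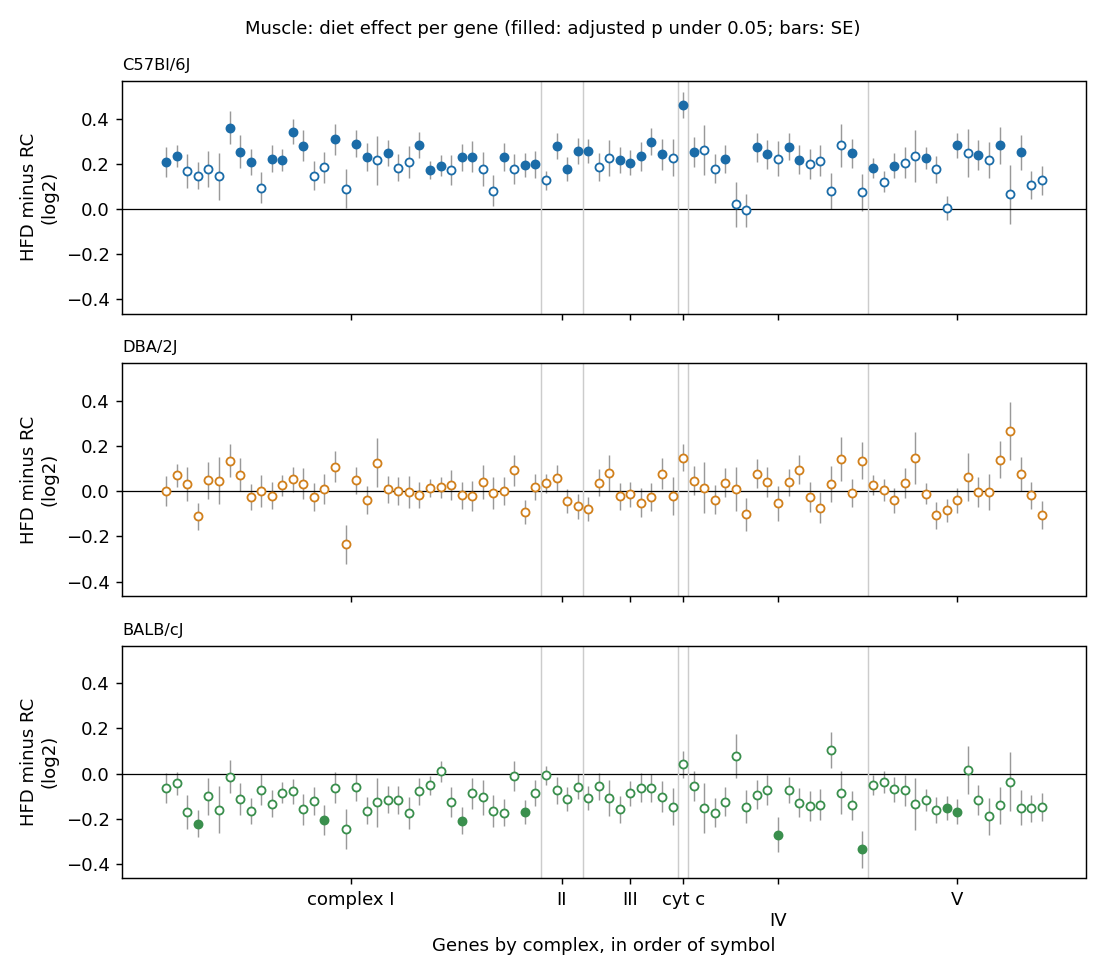
Difference between HFD and RC (vertical axis, log2) of each of 84 genes in muscle (horizontal axis, by complex) for C57Bl/6J, DBA/2J and BALB/cJ. Points are estimates over 3 days, bars are SEs, and filled points have an adjusted p under 0.05. The C57Bl/6J panel has 45 filled points, all above 0, the DBA/2J panel none, and the BALB/cJ panel 8, all below 0.

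The difference between strains was itself tested in muscle. The diet effect differed between strains for 54 of 84 OXPHOS genes (F test, 9.83% of all genes called): 23 of complex I, 3 of complex II, 6 of complex III, 12 of complex IV, 9 of complex V and Cycs. Between BALB/cJ and C57Bl/6J the diet effect was lower in BALB/cJ for 58 genes and higher for 0 (6.52% of all genes called), with a median difference of -0.34. Between DBA/2J and C57Bl/6J it was lower in DBA/2J for 10 genes and higher for 0 (4.30% of all genes called), with a median of -0.20. BALB/cJ and DBA/2J differed for 1 gene, Ndufa4l2 (3.07% of all genes called). The smallest adjusted p values of the F test were 0.000363 for Atp5g3, 0.000566 for Ndufab1, 0.000834 for Cyc1, 0.00116 for Cycs, 0.00147 for Ndufs4 and 0.00156 for Atp5f1, a subunit of the ATP synthase stalk. For Atp5g3, the diet effect in BALB/cJ minus that in C57Bl/6J was -0.45 ± 0.079 (adjusted p = 0.000565), and that in DBA/2J minus that in C57Bl/6J was -0.32 ± 0.079 (adjusted p = 0.0108).

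Per library, the median OXPHOS gene in C57Bl/6J muscle was 7.79 ± 0.185 (SD, n = 12) on RC and 7.96 ± 0.113 on HFD. The DBA/2J values were 8.01 ± 0.180 and 7.99 ± 0.197, those of BALB/cJ 8.01 ± 0.178 and 7.87 ± 0.082. The 12 RC libraries of C57Bl/6J spread from 7.44 to 8.04 and those on HFD from 7.74 to 8.16, so single libraries overlapped. The lowest C57Bl/6J library, at 7.44, was 1RC226, the one with the highest Alb, and the highest of all, at 8.46, was the BALB/cJ RC library 3RC251.

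**Figure D3:**
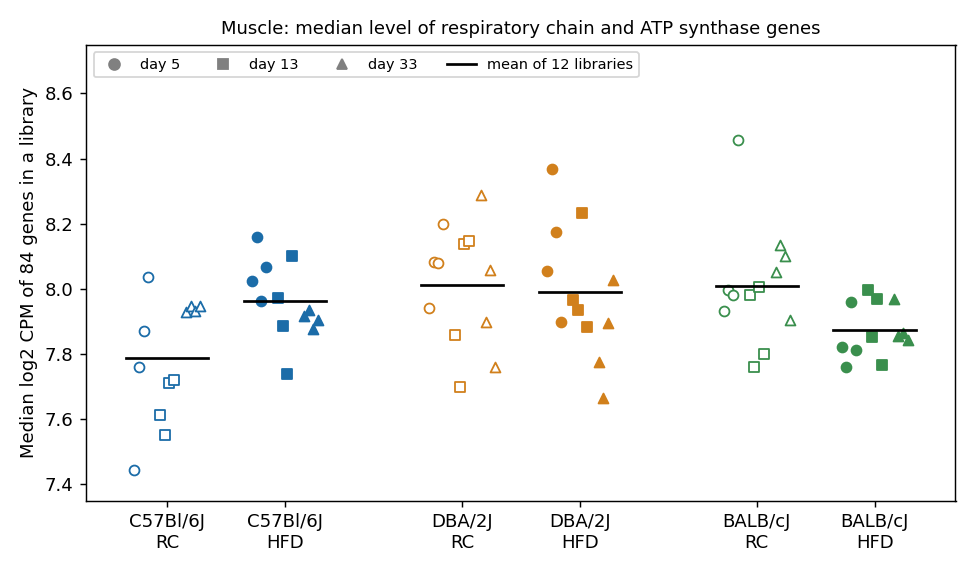
Median log2 CPM of the 84 OXPHOS genes in each of 72 muscle libraries (vertical axis) by strain and diet (horizontal axis). Open points are RC, filled points HFD, shapes give the day and black lines the mean of 12 libraries. The RC and HFD means are 7.79 and 7.96 for C57Bl/6J, 8.01 and 7.99 for DBA/2J, and 8.01 and 7.87 for BALB/cJ.

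By day, the median difference of the 84 genes in C57Bl/6J muscle was 0.31 at day 5, 0.27 at day 13 and 0.06 at day 33. At day 5, 11 genes were higher (0.843% of all genes called), at day 13 3 genes (Cycs, Ndufab1 and Ndufa3, 0.572% of all genes called), and at day 33 Cycs only (4.33% of all genes called). The BALB/cJ medians were -0.21, 0.03 and -0.15, with 7 lower genes at day 5 (3.70% of all genes called), and the DBA/2J medians 0.05, 0.08 and -0.11. No OXPHOS gene passed the test of a difference between days, in which the diet effect was averaged over the 3 strains. By this test limma called 0.990% of all genes, and 33 of the 84 OXPHOS genes had an unadjusted p under 0.05. A change between days within C57Bl/6J alone was not tested. Cycs kept its difference in C57Bl/6J over time, at 0.43, 0.52 and 0.43 on days 5, 13 and 33, while Atp5g3 gave 0.35, 0.32 and 0.17 and Cox7a1 0.33, 0.36 and -0.02.

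Markers of fibre types and of liver cells were set beside the C57Bl/6J result. The library 1RC210 had the lowest mean of 10 slow fibre markers, 5.18, and the highest mean of 11 fast fibre markers, 13.32. The other 11 RC libraries had slow fibre means of 10.92 to 11.32 and fast fibre means of 10.70 to 11.70, against 10.81 to 11.39 and 10.67 to 11.60 on HFD, so these ranges overlapped. The mean of 6 hepatocyte markers ranged from -2.81 to 9.03 on RC, the highest in 1RC226, and from -2.37 to 5.83 on HFD. With the slow fibre mean as a covariate 39 genes were higher, and no fit had the other marker means as a covariate. Because 1RC210 lay so far from the other C57Bl/6J libraries in this mean, that fit rests largely on 1RC210. It can say little about fibre mix among the rest. Leaving out 1RC226 left 30 genes, and leaving out 1RC210, 1RC226 and 2HF201 together left 38. The same 3 libraries left out gave 23 lower genes in BALB/cJ and 59 genes in the F test. In BALB/cJ the count fell to 2 without 3RC251. The shares of all genes called in these fits are not given here, so these counts are not set against a background. The titles number the animals in 3 separate ranges, whose meaning the labels do not give. The median C57Bl/6J effect was 0.09 in the lowest range (1 HFD, 2 RC), 0.43 in the middle range (4 HFD, 4 RC) and 0.12 in the highest range (7 HFD, 5 RC).

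The wider mitochondrial programme in C57Bl/6J muscle was read from lists of genes outside the set. Against 5.75% of all genes called and 3.79% higher, of 13 enzymes of the TCA cycle 8 were higher and 0 lower, of 77 mitochondrial ribosomal proteins 21 were higher and 0 lower, and of 48 assembly factors of the complexes 9 were higher and 0 lower. Of 81 cytosolic ribosomal proteins 1 was higher. None of 7 measured mitochondrially encoded subunits was called, though all 7 estimates were above 0 with a median of 0.20. Among 17 regulators, 2 were higher: Tfam, which packages and transcribes mitochondrial DNA, by 0.24 ± 0.042 (adjusted p = 7.31e-05), and Esrra, the estrogen-related receptor alpha, by 0.21 ± 0.059 (adjusted p = 0.0242). Ppargc1a gave -0.64 ± 0.286 (adjusted p = 0.201) and Nrf1 -0.11 ± 0.044 (adjusted p = 0.122).

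In BALB/cJ muscle, where 11.5% of all genes were called and 5.26% were lower, 9 of the 77 mitochondrial ribosomal proteins and 7 of the 48 assembly factors were lower, 1 assembly factor was higher, and 0 of the 13 TCA enzymes were called. Pprc1, a coactivator related to PGC-1α, was higher by 0.25 ± 0.053 (adjusted p = 0.0017). In DBA/2J, Esrrg, a receptor linked to oxidative fibres, was lower, with a difference of -0.49 ± 0.147 (adjusted p = 0.0233). The diet effect differed between strains for 28 of the 77 mitochondrial ribosomal proteins, 14 of the 48 assembly factors, 6 of the 13 TCA enzymes, 1 of the 81 cytosolic ribosomal proteins and 3 of the 17 regulators, Tfam, Esrrg and Pprc1 (9.83% of all genes called).

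In liver, few OXPHOS genes responded to the diet. Over all strains and days 1 of 83 genes was higher and 5 were lower, a share of 7.23% where 21.2% of all 12611 genes were called. The estimates were mostly small and negative, with a median of -0.06 and 71 of 83 below 0. Atp5s, coupling factor B of the ATP synthase, was higher by 0.21 ± 0.060 (adjusted p = 0.00796). It ranged from 1.35 to 2.26 on RC and 1.43 to 2.76 on HFD in DBA/2J, and from 1.47 to 2.01 and 1.07 to 2.58 in BALB/cJ, so the diets overlapped. The lower genes were Atp5g1 (-0.13 ± 0.038) and the complex I subunits Ndufa12 (-0.13 ± 0.040), Ndufa6 (-0.13 ± 0.045), Ndufc2 (-0.15 ± 0.056) and Ndufa13 (-0.12 ± 0.046), with adjusted p between 0.0116 and 0.0481. The calls of Ndufc2 and Ndufa13 were the least firm: they ended in 31 and 43 of the 72 fits with 1 animal left out, and for both under quantile normalization, with the number range as a covariate and without the 5 livers highest in Acta1.

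Within strains, liver gave 0 called genes in C57Bl/6J (2.31% of all genes called by limma, and 2 OXPHOS genes at an unadjusted p under 0.05). In DBA/2J 2 were higher (21.6% of all genes called), among them Atp5s by 0.32 ± 0.104. In BALB/cJ 4 were lower (14.8% of all genes called): Sdha (-0.16 ± 0.053), Ndufa12 (-0.20 ± 0.069), and the ATP synthase subunits Atp5b (-0.15 ± 0.052) and Atp5d (-0.13 ± 0.048). With 1 animal left out these calls ended in 10 (Sdha), 14 (Ndufa12), 20 (Atp5b) and 29 (Atp5d) of 72 fits, and the count ran from 0 to 7. Under quantile normalization Atp5b gave 0.049 and Atp5d -0.033, neither of them called lower. No OXPHOS gene differed in its diet effect between strains (15.7% of all genes called, 3 OXPHOS genes at an unadjusted p under 0.05). Averaged over strains, no OXPHOS gene differed in its diet effect between days (3.35% of all genes called, 2 at an unadjusted p under 0.05). Of the regulators in liver, Ppargc1a fell by 0.43 over all strains (SE 0.102, adjusted p = 0.00151), and by 0.71 in BALB/cJ (SE 0.176, adjusted p = 0.00395). Esrra was lower in DBA/2J, with a difference of -0.37 ± 0.087 (adjusted p = 0.00101), and its diet effect differed between strains (adjusted p = 0.00627).

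In adipose tissue, Atp5e, the epsilon subunit of the ATP synthase, was the 1 gene of 85 called over all strains, higher on HFD by 0.45 ± 0.123 (adjusted p = 0.0312, 2.67% of all genes called). Without 3HF201 and 3HF208 it was higher by 0.40 ± 0.121 (adjusted p = 0.0492, 3.59% of all genes called). With the animal number as a replicate block the difference was 0.47 and was no longer called, and the call also ended without 1RC254, 2RC203, 2RC211, 3RC255 or 3RC259. On the 70 libraries with the mean of lymphoid markers as a covariate, 6 genes were called (16.5% of all genes called). Atp5e (0.40 ± 0.118) and Atp5s (0.15 ± 0.052) were higher, and the complex IV genes Cox5b (-0.22 ± 0.062), Cox6a1 (-0.23 ± 0.077) and Cox4i2 (-0.32 ± 0.114) and the ATP synthase subunit Atp5d (-0.19 ± 0.068) were lower. The RC values of Atp5e ran from 4.79 to 6.19 in C57Bl/6J, 4.89 to 6.34 in DBA/2J and 4.60 to 6.44 in BALB/cJ. The HFD values of Atp5e ran from 5.73 to 6.77, 5.41 to 7.38 and 5.36 to 7.19, so every strain overlapped. Within strains, limma called no OXPHOS gene in C57Bl/6J, DBA/2J or BALB/cJ, with 2, 0 and 5 at an unadjusted p under 0.05 (0.115%, 0.411% and 0.435% of all genes called).

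The adipose libraries fell into separate sets by their lymphoid transcripts. Leaving out 3HF201 and 3HF208, the mean of 8 B cell and 8 T cell markers was between -0.54 and 1.79 in 30 libraries and between 5.79 and 7.87 in 40. The median OXPHOS gene was at 6.24 to 6.91 in the first set and at 5.43 to 7.04 in the second, with medians of 6.67 and 5.90. On RC, 9 of 12 DBA/2J libraries, 2 of 12 of C57Bl/6J and 4 of 12 of BALB/cJ were in the first set. In bulk tissue, fewer cells of a type and less RNA per cell cannot be told apart.

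**Figure D4:**
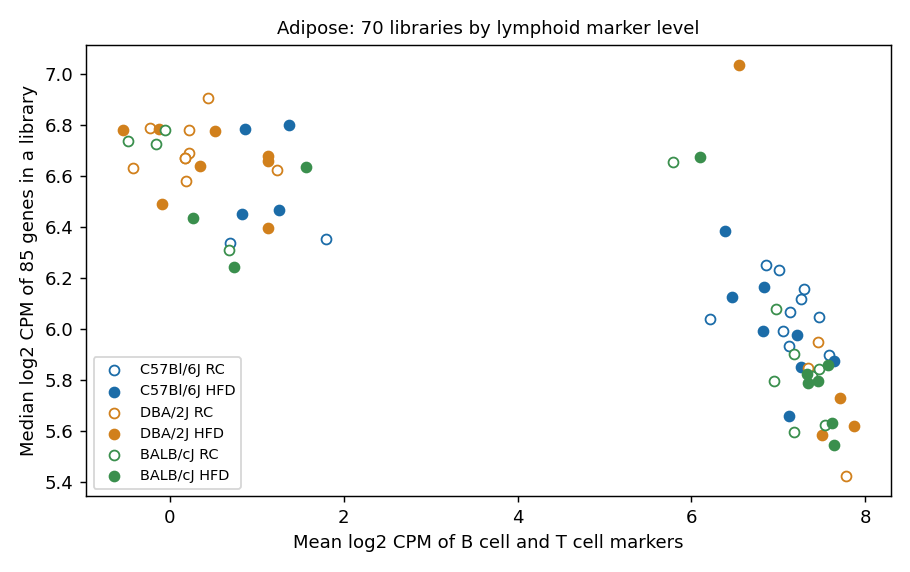
Median log2 CPM of the 85 OXPHOS genes (vertical axis) against the mean log2 CPM of B cell and T cell markers (horizontal axis) in 70 adipose libraries, coloured by strain, open for RC and filled for HFD. The 30 libraries on the left lie at 6.24 to 6.91, and most of the 40 on the right lie lower, with a median of 5.90.

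On RC the strains differed at many OXPHOS genes, on a background where a large share of all genes differed too. Reads of all strains were aligned to the C57BL/6J genome, so sequence differences may enter these values and were not tested. In muscle, 61 of 84 genes were higher and 3 lower in BALB/cJ than in C57Bl/6J (76.2%, where 44.5% of all genes were called and 21.2% were higher). Between DBA/2J and C57Bl/6J 34 were higher in DBA/2J and 2 lower (42.9% against 37% of all genes called), and between BALB/cJ and DBA/2J 16 were higher in BALB/cJ and 6 lower (26.2% against 40.4%). This last count was 35 under quantile normalization (40.6% of all genes called), 41 with the slow fibre mean as a covariate (44%) and 39 without 1RC210, 1RC226 and 2HF201 (46.5%). The C57Bl/6J RC animals of these comparisons are the ones that the diet effect in C57Bl/6J was measured against. In liver the pairs gave 15 higher and 3 lower in DBA/2J than C57Bl/6J (48.1% of all genes called), 14 and 5 in BALB/cJ than C57Bl/6J (46.8%), and 5 and 6 in BALB/cJ than DBA/2J (42.1%), each below the background share at 21.7%, 22.9% and 13.3% of the OXPHOS genes. Without the 5 liver libraries highest in Acta1, the first pair gave 7 higher and 5 lower. Day 33 and day 5 on RC differed for 0 OXPHOS genes by limma in liver and in muscle (0.666% and 2.85% of all genes called). In the same order, 2 and 3 OXPHOS genes had an unadjusted p under 0.05.

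Cox7a2l, a factor that joins complexes III and IV into supercomplexes, was lowest in DBA/2J in every tissue. In liver on RC it ranged from 5.52 to 6.25 in C57Bl/6J, from 5.07 to 5.50 in DBA/2J and from 5.63 to 6.08 in BALB/cJ. In muscle the ranges were 6.17 to 6.55, 5.56 to 6.06 and 6.39 to 6.98, and in adipose tissue 6.38 to 6.91, 4.95 to 6.15 and 6.06 to 7.04. DBA/2J did not overlap C57Bl/6J in any tissue. DBA/2J minus C57Bl/6J was -0.63 ± 0.062 in liver (adjusted p = 4.56e-13), -0.54 ± 0.064 in muscle (adjusted p = 3.48e-10) and -1.22 ± 0.124 in the 70 adipose libraries (adjusted p = 7.99e-12). BALB/cJ was above C57Bl/6J in muscle by 0.32 ± 0.064 (adjusted p = 3.92e-05), and the pair differed by -0.01 ± 0.062 in liver (adjusted p = 0.904) and -0.13 ± 0.124 in adipose tissue (adjusted p = 0.529). Of the Cox7a2l transcript windows, 7.8% also occur in 1 other gene.

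Atp5g1 was lowest in BALB/cJ in each tissue. Its RC ranges in liver were 6.24 to 6.95 in C57Bl/6J, 6.71 to 7.19 in DBA/2J and 5.90 to 6.50 in BALB/cJ. BALB/cJ minus DBA/2J was -0.67 ± 0.065 in liver (adjusted p = 4.22e-13), -0.43 ± 0.058 in muscle (adjusted p = 1.16e-08) and -0.43 ± 0.112 in adipose tissue without the 2 libraries (adjusted p = 0.00394). BALB/cJ minus C57Bl/6J was -0.35 ± 0.065, -0.32 ± 0.058 and -0.45 ± 0.112 in the same order, each called. The adipose call rests on the 70 libraries: with all 72 the difference was -0.45 ± 0.227 (adjusted p = 0.217), no OXPHOS gene was called and 11.2% of all genes were.

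**Figure D5:**
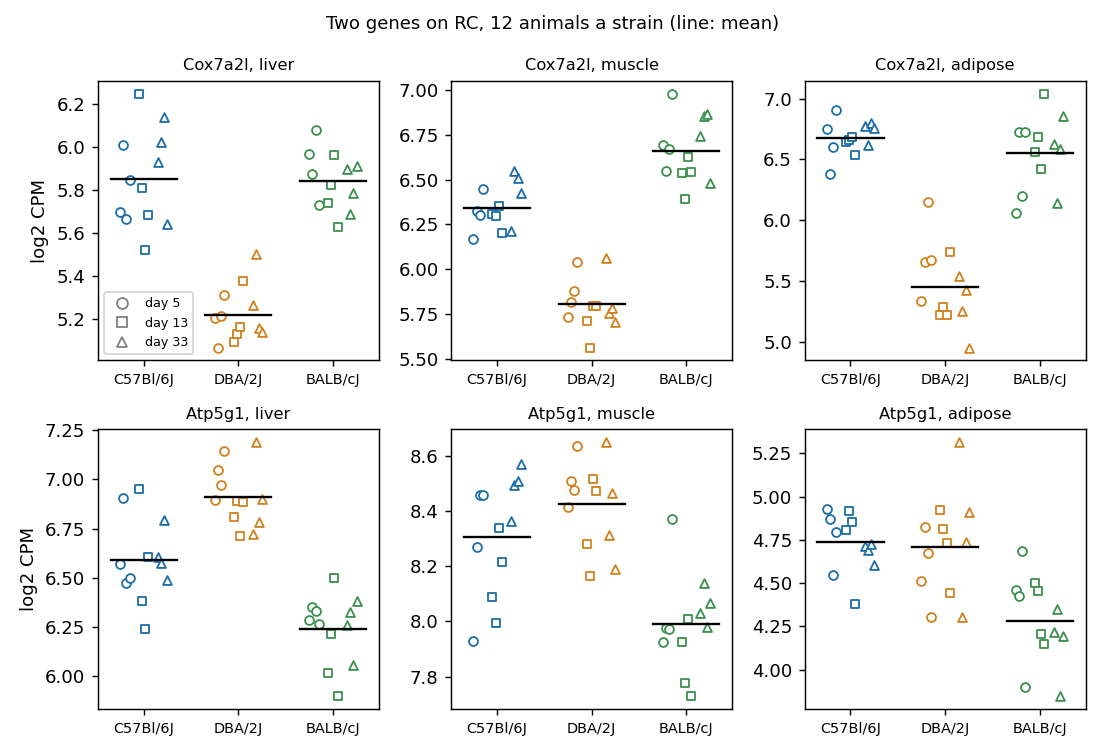
Log2 CPM of Cox7a2l (top row) and Atp5g1 (bottom row) in each of 36 RC animals (vertical axes, scaled per panel) by strain (horizontal axis) in liver, muscle and adipose tissue. Shapes give the day and lines the mean of 12 animals. Cox7a2l is lowest in DBA/2J and Atp5g1 in BALB/cJ in all 3 tissues.

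Of the RC differences between DBA/2J and C57Bl/6J, 9 of the 83 genes tested in all 3 tissues (10.8%) were called with the same sign in each, with adipose tissue taken from the 70 libraries. Of all 11473 genes tested in the 3 tissues, 7.59% were. Among the 9, Atp5a1, Atp5o, Cyc1, Ndufs3, Sdha, Sdhb and Uqcrc1 were higher and Cox7a2l lower in DBA/2J. The same animals gave the 3 tissues, and Atp5a1, Atp5o, Ndufs3 and Uqcrc1 are named here after their values were seen. Sdhb was higher by 0.53 ± 0.073 in liver (7.83 to 8.49 in DBA/2J and 7.18 to 7.76 in C57Bl/6J, with no overlap), by 0.21 ± 0.058 in muscle and by 0.53 ± 0.165 in adipose tissue. With the lymphoid mean as a covariate, Cox7a2l alone of the 9 was still called in adipose tissue. Between BALB/cJ and DBA/2J 4 genes were shared (4.82%, against 4.42% of all genes; among them Atp5g1 and Ndufc2, lower in BALB/cJ, and Cox7a2l, higher in BALB/cJ), and between BALB/cJ and C57Bl/6J Atp5g1 alone (1.20%, against 4.79%). Cox8b in liver, higher in DBA/2J by 2.44 ± 0.880 (adjusted p = 0.0184), ran from 0 reads to 1.01 in C57Bl/6J and from -3.42 to 2.08 in DBA/2J. The mean of 11 fast fibre markers in those livers was -2.35 ± 2.275 (SD) in C57Bl/6J and 0.64 ± 2.084 in DBA/2J. Without the 5 livers highest in Acta1 the Cox8b difference was 1.82 and was no longer called, and the call also ended under quantile normalization (1.88), with number range as a covariate (1.63) and without 1RC210.

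In adipose tissue the RC comparison of DBA/2J with C57Bl/6J changed with the lymphoid transcripts. Among 70 libraries 36 OXPHOS genes were higher and 1 lower in DBA/2J (43.5%, where 51.4% of all genes were called), with a median of 0.40. The 72 libraries gave 30 higher and 1 lower (41.7% of all genes called). With the lymphoid mean as a covariate the median was -0.01 and 2 genes were called (21.8% of all genes called): Cox7a2l at -0.93 ± 0.096 (adjusted p = 1.01e-11) and Atp5g2 at 0.27 ± 0.079 (adjusted p = 0.00838). Sdhb then differed by 0.12 ± 0.123 (adjusted p = 0.538). BALB/cJ and C57Bl/6J differed at Atp5g1 only among 70 libraries (16% of all genes called), and BALB/cJ was higher than DBA/2J at 2 genes and lower at 10 (24.8% of all genes called). The largest of these, Cox7a1 at -1.19 ± 0.385 (adjusted p = 0.0196), ranged from -0.78 to 4.08 in DBA/2J and from -1.08 to 2.38 in BALB/cJ. With the lymphoid covariate it was -0.93 ± 0.381 (adjusted p = 0.062), and 6 genes were called (26.8% of all genes called). It was not called with voom weights either. The mean of the 5 measured of 6 brown or beige fat markers ranged from 0.24 to 5.21 (mean 2.79) in DBA/2J on RC and from -0.09 to 2.82 (mean 1.11) in BALB/cJ on RC, and its part in the result was not tested.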

How the data were processed

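Per the labels' protocols, RNA was purified with RNeasy Plus micro kits and read as 100-base single reads from stranded TruSeq mRNA libraries. STAR 2.5.3a, edgeR and build GRCm38 are named in the submitters' processing notes; the counter and annotation are not given in the sources used here. Deposited by the authors are log2 CPM values with a prior count, worked out from the values as 0.25 reads in liver and 2 in the other tissues. All 216 columns were used; 8 further liver libraries of 4 animals were not analysed here. Day 33 follows the labels, and DBA/2J stands for a strain tag with an extra letter.

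Gene IDs were matched to GENCODE on GRCm38 for 12602, 13624 and 16520 genes of the 3 tables. A gene was tested where log2 CPM reached 0 in 4 animals. limma 3.58.1 (R 4.3.3) was fitted once per tissue with 18 group means, a variance trend and 54 residual degrees of freedom, tested on simulated data, with two-sided p adjusted over all tested genes. Nothing in the labels says how the 4 animals of a group were housed, so p measures the spread between these animals. Per-kb values used exon-union lengths, and shared sequence was the share of 100-base transcript windows found in another gene. Promoters came from RefSeq. Named genes were the called genes of smallest p (or, between strains on RC, of largest change) up to a set number per comparison, with isoform families, subunit c, Ndufa4, Cycs, Cyc1 and complex II always open to naming. The genes, lists and rules were chosen with earlier results of these data known, and the libraries left out and the 150-base windows shown were chosen after the values were seen. Alternatives were other filters, scalings, prior counts, covariates, blocks and left-out animals. Some results are not reported here.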

Additional observations from a re-analysis of the deposited data

Results flagged for a closer look

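The diet effect in muscle differed between strains for 54 of 84 OXPHOS genes by an F test across all genes. The adjusted p was 0.000363 for Atp5g3, 0.000566 for Ndufab1, 0.000834 for Cyc1, 0.00116 for Cycs, 0.00147 for Ndufs4 and 0.00156 for Atp5f1.

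In 6 of 54 groups of 4 animals, 1 library lay far from the other 3 in the median level of the OXPHOS genes. Chance flags about 1 in 20 groups. In liver the highest BALB/cJ library on RC at day 13 had a median of 7.03 log2 CPM, the lowest BALB/cJ library on RC at day 33 (3RC211, among the 5 highest in Acta1) 6.56, and the lowest DBA/2J library on RC at day 13 6.53. In muscle the BALB/cJ library 3RC251 on RC at day 5 had 8.46. In adipose tissue the highest DBA/2J library on HFD at day 5 had 6.78, and the lowest DBA/2J library on RC at day 13 had 5.43.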

How the results depend on the processing

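The test that uses whole reads under a negative binomial model was not run, because the deposited unit is log2 CPM; limma with voom weights on the recovered reads, added after the data were seen, gave 45 higher OXPHOS genes for C57Bl/6J muscle and 54 in the F test between strains, as in the main fit. In muscle, the 45 ranged from 30 to 62 with 1 animal left out, from 38 to 57 over the other alternatives, and the 54 from 42 to 67 and from 48 to 59.

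Counts of called genes that moved by over 1.5 times were these, given without the share of all genes called in each fit. Within the lowest, middle and highest range of animal numbers, the diet effect was averaged over the strains and days with both diets in that range. The highest range had no such day of DBA/2J, so these averages cover other strains and days than the main fit. They gave 3, 0 and 0 genes in liver (main 6) and 2, 54 and 1 in muscle (main 5). In adipose tissue the middle and highest ranges gave 0 (main 1). Quantile normalization gave 1 gene for liver C57Bl/6J (main 0), 6 for DBA/2J (main 2), 1 for BALB/cJ (main 4) and 1 for days (main 0), 10 for muscle over all strains (main 5), 35 for BALB/cJ minus DBA/2J on RC (main 22), and medians of -0.028 for liver BALB/cJ day 33 (main -0.130) and 0.041 for muscle C57Bl/6J day 33 (main 0.061). Testing only genes at or above the median level gave 1 for liver DBA/2J and 8 for muscle over all strains. The number range as a covariate gave 4 and 2 for liver DBA/2J and BALB/cJ, 11 for liver DBA/2J minus C57Bl/6J on RC (main 18), 1 for muscle DBA/2J (main 0), a median of 0.027 for muscle C57Bl/6J day 33, and 1, 7 and 1 in adipose tissue for the BALB/cJ diet effect (main 0), DBA/2J minus C57Bl/6J (main 31) and BALB/cJ minus C57Bl/6J (main 0). Fits on 1 strain gave 6 for liver DBA/2J and 1 for BALB/cJ. The slow fibre covariate gave 41 for BALB/cJ minus DBA/2J on RC and a median of -0.001 for muscle C57Bl/6J day 33. Leaving out 3 muscle libraries gave 23 for BALB/cJ (main 8), 39 for BALB/cJ minus DBA/2J and a median of 0.030 at day 33. In adipose tissue the lymphoid covariate gave 5 over all strains, 2 for the BALB/cJ diet effect, and 1, 2 and 2 for DBA/2J minus C57Bl/6J, BALB/cJ minus C57Bl/6J and BALB/cJ minus DBA/2J (main 31, 0 and 7). On 70 libraries the last 2 were 1 and 12, and with the covariate too the values were 6 over all strains, 2 for DBA/2J minus C57Bl/6J and 5 for BALB/cJ minus C57Bl/6J. Apart from fewer genes or animals, or other strains and days, in some fits, the cause was not tested.

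With 1 animal left out in turn, liver counts ranged from 3 to 9 over all strains, 0 to 1 in C57Bl/6J, 1 to 3 in DBA/2J, 0 to 7 in BALB/cJ, 0 to 2 between strains, 0 to 1 between days, and 11 to 22 and 17 to 31 for DBA/2J and BALB/cJ minus C57Bl/6J on RC. The 0 for BALB/cJ came without 3HF201, the 11 without 1RC226 and the 31 without 1RC228. Muscle counts ranged from 5 to 11 over all strains, 0 to 1 in DBA/2J, 2 to 16 in BALB/cJ, 0 to 1 between days and for day 33 minus day 5 on RC, and 16 to 39 for BALB/cJ minus DBA/2J (39 without 2RC208), and the C57Bl/6J day 33 median from 0.030 (without 1RC210) to 0.075. Adipose counts ranged from 0 to 1 over all strains (0 without 1RC254), 18 to 57 for DBA/2J minus C57Bl/6J (18 without 2RC200, 57 without 2RC231) and 3 to 25 for BALB/cJ minus DBA/2J (3 without 3RC211, 25 without 2RC231).

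Named genes changed sign in these cases. Atp5s in liver, 0.21, gave -0.005 in the highest range of numbers, which held no DBA/2J day with both diets. Ndufc2 and Ndufa13, -0.15 and -0.12, gave 0.055 and 0.029 in the middle range. Atp5b in BALB/cJ liver, -0.15, gave 0.049 under quantile normalization. Sdha in adipose tissue, 0.47 for DBA/2J minus C57Bl/6J, gave -0.014 with the lymphoid covariate and -0.042 on 70 libraries with it. HFD and RC animals of a strain and day share title numbers in 20 pairs a tissue, but their deviations correlated above 0.1 in 12, 7 and 4 pairs of liver, muscle and adipose tissue, so the numbers were not taken to pair them. With the animal number as a replicate block (correlation 0.143, 0.044 and -0.236) muscle gave 46 for C57Bl/6J and 54 between strains, and adipose tissue 0 over all strains (main 1), where Atp5e, 0.45, gave 0.466 and was no longer called. Depth limits low genes such as Cox8b in liver, listed at 0 reads in some libraries.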
